A study of Mus musculus with 12 samples.

Results

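The cholesterol and fatty acid synthesis genes described here are 29 of the 54532 genes in a table of RNA-seq values from mouse colonic epithelial organoids (colonoids). They are the entries whose gene symbol stands in a list of enzymes of the mevalonate and sterol pathway, regulators of sterol regulatory element-binding proteins (SREBPs), a sterol carrier and enzymes of fatty acid synthesis. Each of the 29 symbols stood once in the table, and all 29 passed the filter on low values. The study asked how colonic epithelium with and without *Hmox1*, the gene of the heme-degrading enzyme heme oxygenase-1, responds to hemin. Colonoids were control (*Hmox1* fl/fl, floxed alleles without Cre) or KO (*Hmox1* ΔIEC, the floxed alleles crossed with a Vil1-Cre transgene), and each genotype received vehicle or 200 µM hemin for 24 hours, with 3 libraries in each of the 4 groups. Vil1-Cre recombines throughout the gut lining, colon included. All groups carried floxed *Hmox1*, came from mice of 8 to 12 weeks, and grew in medium conditioned by L-WRN cells with fetal bovine serum. No group carried Cre without the floxed alleles. Whether the 3 libraries within a group stem from separate mice is not labelled, so p-values measure the spread between these libraries only, which may be technical. Replicate 3 of the labelled KO hemin group carries a genotype label written with floxed alleles and Vil1-Cre, where the other 5 labelled KO libraries are written as KO with Vil1-Cre.

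The libraries were of poly-T selected mRNA. Values were FPKM, fragments scaled by gene length and library size, which allow levels to be compared between genes. Whole fragments could be read back from them, and libraries held 11648801 to 25101868 fragments. The least covered member in any library was *Fdps*, with 129 fragments. The median ratio of a library to the geometric mean of all 12 was 1.01 in every library, so the deposited values already stood on a shared scale of this kind. Replicate 3 of control hemin stood apart by the size of its deviations. The deviations from the group mean followed the GC content of the genes (Pearson r = -0.54 across 12730 genes and -0.85 across the 29 members), and their SD over the members was 0.27 on the log2 scale. The next largest SD was 0.17, in replicate 2 of the same group. Correlations with GC content across the members were of similar size in replicates 1 and 3 of control vehicle and replicate 2 of control hemin (-0.84, 0.82 and 0.84). Counts are therefore also given without replicate 3 of control hemin, and after removal of each library's own GC trend. These correlations run across genes of 1 library, which are not independent, and are descriptions.

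*Hmox1* was at 7.62, 6.85 and 7.896 FPKM under vehicle and 503, 483 and 382 FPKM under hemin in the control libraries, and 3.14, 2.11 and 2.31 FPKM under vehicle and 1279, 1392 and 1271 FPKM under hemin in the libraries labelled KO. Under vehicle the labelled KO libraries lay below every control library, at log2 fold change -1.27 ± 0.12, adjusted p = 1.2e-05 (limma, Benjamini-Hochberg; values after ± are SE throughout). Under hemin all 3 labelled KO libraries lay above every control library (1.53 ± 0.12, adjusted p = 3.3e-06), which goes against the label. The groups are therefore called labelled KO, and every direction given below between genotypes is one between labels. The values cover the whole gene, and reads from exons that a deletion may leave in place cannot be told apart from those of an intact transcript. *Hmox1* rose with hemin among control libraries (5.75 ± 0.12, adjusted p = 2.5e-10) and among libraries labelled KO (8.55 ± 0.12, adjusted p = 7.1e-12).

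Cells build cholesterol from acetyl-CoA through mevalonate, farnesyl diphosphate and squalene, and fatty acids from the same acetyl-CoA through malonyl-CoA. SREBPs are transcription factors held in the endoplasmic reticulum membrane with SCAP, and INSIG proteins retain the complex while sterols are plentiful. When sterols run low the complex moves to the Golgi, where proteases release the active factor, which raises transcription of genes of both routes. The intestinal epithelium renews constantly and uses both synthesis and uptake of sterols for new membranes.

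Among the members, the highest level in control colonoids under vehicle was that of *Scd2*, a stearoyl-CoA desaturase, with a mean of 570.0 ± 6.99 FPKM (SD, n = 3). The mevalonate enzyme *Hmgcs1* followed at 149 ± 5.56 FPKM, then *Insig1* at 129 ± 2.002 FPKM and the sterol demethylase *Cyp51* at 116 ± 5.12 FPKM. The lowest levels were those of *Acaca*, the acetyl-CoA carboxylase, at 6.92 ± 0.342 FPKM and *Fdps*, the farnesyl diphosphate synthase, at 4.799 ± 0.228 FPKM. The gap between *Scd2* and *Hmgcs1* was far wider than their spread, and every *Acaca* library lay above every *Fdps* library. *Fdps* overlaps another annotated gene on the same strand, so its level and its rank are uncertain.

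In control colonoids, hemin was accompanied by lower levels across most of the pathway. Of the 29 members, 24 fell and 1 rose at an adjusted p under 0.05 in limma, where 26.7% and 23.2% of the 12740 tested genes did so. All 7 mevalonate enzymes and all 6 fatty acid enzymes fell, as did 7 of 11 sterol enzymes and 4 of 5 regulators. The median log2 fold change was -0.65 over the members and -0.01 over all tested genes. With a log2 fold change beyond 1 required as well, 6 members were called lower, against 5.93% of tested genes. They were *Acat2*, *Pmvk*, *Mvd*, *Lss*, *Fasn* and *Scd1*. *Mvd* lost this call, at -0.81, and *Idi1* gained it, at -1.01, without replicate 3 of control hemin. None was called higher, against 2.17% of genes, with 1 member higher at an unadjusted p under 0.05 and 0 called higher by limma-voom. In bulk RNA, fewer cells of a type and less RNA per cell cannot be told apart. Without replicate 3 of control hemin the counts at adjusted p alone were 2 higher and 24 lower, with a fit of the compared groups alone 1 higher and 22 lower, and with GC trends removed 2 higher and 24 lower. Of all 12740 tested genes, 3450 and 3758, 2108 and 2580, and 3647 and 3755 passed in these fits. With the values rescaled to TPM the counts were 0 higher and 22 lower, where 914 and 3386 of 15495 tested genes were, while the median of all genes moved by -0.17. *Tm7sf2*, *Sc5d* and *Stard4* no longer passed in TPM. The members' median relative to all genes was -0.64 in FPKM and -0.67 in TPM.

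In colonoids labelled KO, members passed for hemin in both directions. In the main fit their shares lay near or below those of all tested genes. Under the alternatives below that gave 15 or 16 lower, the share that fell was above that of all tested genes. At adjusted p alone, 10 fell and 5 rose, where 30.4% and 29.9% of tested genes did so. With a fit of the compared groups alone the counts were 7 higher and 15 lower, where 4463 and 4459 of 12740 tested genes were. How far the number passing differs from control colonoids therefore depends on the fit. The 5 that rose were all sterol enzymes, *Fdft1*, *Cyp51*, *Tm7sf2*, *Msmo1* and *Sc5d*, although the log2 fold changes of *Fdft1* and *Cyp51* turned negative in TPM (-0.14 and -0.19), where *Tm7sf2* was the 1 member to pass as higher. The 10 that fell were *Acat2*, *Pmvk*, *Mvd*, *Lss*, *Srebf2*, *Stard4*, *Acly*, *Acaca*, *Fasn* and *Scd1*, and in TPM the falls of *Lss*, *Srebf2*, *Stard4*, *Acly* and *Acaca* were -1.02, -0.74, -0.65, -0.98 and -0.98. The median was -0.15 over the members and -0.00 over all tested genes. With the fold threshold, *Acat2*, *Mvd* and *Scd1* were called lower, against 8.07% of genes, and *Tm7sf2* was called higher, against 4.87%. With the values rescaled to TPM the counts were 1 higher and 16 lower, where 1254 and 5266 of 15495 tested genes were. The median of all genes shifted by -0.31, and the members' median relative to all genes was -0.14 in FPKM and -0.18 in TPM. In TPM *Mvk*, *Idi1*, *Sqle*, *Dhcr7*, *Srebf1* and *Elovl6* passed as lower as well, and *Nsdhl*, *Hsd17b7*, *Ebp*, *Insig1*, *Scap* and *Scd2*, which had not passed in FPKM, turned from positive to negative. Without replicate 3 of control hemin, which enters this comparison only through the shared spread, the counts were 8 higher and 15 lower, where 4404 and 4366 of 12740 tested genes were. This added *Mvk*, *Idi1*, *Sqle*, *Srebf1* and *Elovl6* as lower and *Hsd17b7*, *Ebp* and *Scd2* as higher. With the fold threshold, 2 were called lower without replicate 2 of labelled KO vehicle (*Acat2* at -0.97) and 4 without replicate 1 of labelled KO hemin (*Pmvk* at -1.001). *Acat2* lost and *Pmvk* gained this call without replicate 3 of labelled KO hemin (-0.998 and -1.05). The count of members that rose was 3 without replicate 1 of labelled KO hemin, and 3 without replicate 2 or replicate 3 of labelled KO vehicle. With GC trends removed, the counts were 6 higher and 16 lower, where 4222 and 4237 of 12740 tested genes were. This added *Hmgcs1*, *Mvk*, *Idi1*, *Sqle*, *Srebf1* and *Elovl6* as lower and *Scap* as higher.

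Under vehicle, most members were lower in colonoids labelled KO than in control colonoids, in the absence of hemin. At adjusted p alone, 21 of 29 were lower and 1 was higher, where 16.8% and 17.4% of tested genes were. The 1 higher member was *Acly*. Lower were 5 of 7 mevalonate enzymes, 9 of 11 sterol enzymes, 5 of 6 fatty acid enzymes and 2 of 5 regulators. The median was -0.47 over the members and 0.02 over all tested genes. With the fold threshold, *Lss* and *Elovl6* were called lower, against 3.27% of genes. None was called higher, against 3.53%, with 1 member higher at an unadjusted p under 0.05 and 0 called higher by limma-voom. With the values rescaled to TPM the counts were 1 higher and 6 lower, where 1806 and 951 of 15495 tested genes were. The median of all genes shifted by 0.13, and the 6 were *Lss*, *Cyp51*, *Hsd17b7*, *Nsdhl*, *Scd1* and *Elovl6*. Relative to all genes the members' median was -0.49 in FPKM and -0.48 in TPM. Across the members, log2 fold change and GC content had r = 0.45, and 1 higher and 25 lower members passed with GC trends removed (2745 and 2650 of 12740 tested genes). Without replicate 3 of control hemin they were 1 higher and 24 lower, with *Pmvk*, *Mvd* and *Ebp* added, and with a fit of the compared groups alone 1 higher and 24 lower. Of all 12740 tested genes, 3033 and 2788 passed in the former and 3116 and 2802 in the latter. The fewest lower members with a library left out were 18, beside 1 higher, without replicate 3 of labelled KO vehicle. In that fit 1746 of 12740 tested genes were higher and 1717 lower. *Mvk* lost its call without any 1 of 4 and *Idi1* without any 1 of 2 libraries, with adjusted p of 1.7e-04 to 0.31 over all alternatives for *Mvk* and 2.9e-04 to 0.24 over all alternatives for *Idi1*.

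Under hemin, members passed between labels in both directions, in shares near those of all tested genes. At adjusted p alone, 7 were higher in colonoids labelled KO, *Cyp51*, *Tm7sf2*, *Sc5d*, *Srebf1*, *Insig1*, *Acly* and *Scd2*, and 6 were lower, *Acat2*, *Lss*, *Dhcr7*, *Stard4*, *Elovl6* and *Scd1*. Of tested genes, 19.7% were higher and 14.7% lower. The median was 0.06 over the members and 0.04 over all tested genes. *Elovl6* alone was called lower with the fold threshold, against 2.91% of genes. None was called higher, against 3.1%, with 7 members higher at an unadjusted p under 0.05 and 0 called higher by limma-voom. Without replicate 3 of control hemin, 10 higher and 8 lower passed (3151 and 2332 of 12740 tested genes), and with GC trends removed 10 higher and 8 lower (2999 and 2506). With a fit of the compared groups alone, 3 higher and 4 lower passed (1563 and 1165 of 12740 tested genes). With the values rescaled to TPM the counts were 1 higher and 2 lower (1228 and 1074 of 15495 tested genes), *Acly* as higher and *Dhcr7* and *Elovl6* as lower. *Sc5d* lost its call without any 1 of 11 libraries, the exception being replicate 3 of control hemin, and *Srebf1* without any 1 of 8 libraries. Their adjusted p was 1.9e-04 to 0.38 over all alternatives for *Sc5d* and 0.0019 to 0.30 over all alternatives for *Srebf1*. *Hmgcs1*, *Mvk*, *Mvd*, *Idi1* and *Hsd17b7* passed without replicate 3 of control hemin, and *Hmgcs1*, *Mvk* and *Mvd* also with GC trends removed.

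The interaction term tested whether the hemin change differed between the labels. It was positive, meaning a smaller fall or a larger rise in colonoids labelled KO, for 26 of 29 members. At adjusted p alone 15 passed with a positive term, where 13.3% of tested genes did, and none with a negative term, where 10.5% did. At an unadjusted p under 0.05, 2 members passed with a negative term, and limma-voom gave 0 at its adjusted p. The 15 included 8 of 11 sterol enzymes, 4 of 6 fatty acid enzymes, 2 of 7 mevalonate enzymes and 1 of 5 regulators. The median was 0.55 over the members and 0.02 over all tested genes. No member was called with the fold threshold in either direction, against 2.57% of genes with a positive and 2.56% with a negative term, and limma-voom called 0 and 0. Unadjusted, 19 members had a positive term at p under 0.05. In TPM, 0 of 29 passed at adjusted p alone, where 349 of 15495 tested genes passed with a positive and 752 with a negative term. The members' median relative to all genes was 0.53 in TPM, beside 0.53 in FPKM. Leaving out each library in turn, 13 to 19 members passed with a positive and 0 to 2 with a negative term. The count was 13 without replicate 3 of control vehicle, replicate 1 of labelled KO vehicle or replicate 3 of labelled KO hemin. Of all 12740 tested genes, 1379, 1353 and 1345 passed with a positive term in these fits. Without replicate 3 of control hemin the counts were 19 positive and 2 negative, where 2656 and 2070 of 12740 tested genes passed. This added *Pmvk*, *Idi1*, *Msmo1* and *Ebp* to the former and *Dhcr7* and *Acly* to the latter, with *Sc5d* called at 1.01. With GC trends removed the counts were 21 and 0, where 2289 and 1924 of 12740 tested genes passed.

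The share of higher among all called genes differed by over 10 points between FPKM and TPM in 4 of 5 comparisons. The comparisons share groups, so their values are not independent. At adjusted p alone, the share was 46.4% in FPKM and 21.3% in TPM for hemin in control colonoids, 49.6% and 19.2% for hemin in labelled KO, 50.9% and 65.5% for labels under vehicle, and 55.9% and 31.7% for the interaction. For labels under hemin it was 57.2% and 53.3%. With the fold threshold, in the order hemin in control, hemin in labelled KO, labels under vehicle, labels under hemin and interaction, the share was 26.8%, 37.6%, 51.96%, 51.6% and 50.2% in FPKM and 15.5%, 13.9%, 62.4%, 50.6% and 31.6% in TPM. The filter of 1 in 3 libraries kept 15495 genes in TPM, so the sets of genes differ as well. With TPM on the same 12740 genes, an alternative chosen after seeing the data, the shares at adjusted p alone were 21.4%, 20.2%, 64.9%, 54.6% and 34.3% in that order, and 23, 16, 6, 2 and 0 members were lower and 0, 1, 1, 1 and 0 higher. Of all 12740 genes, 3146, 4708, 797, 958 and 597 were lower and 854, 1191, 1472, 1151 and 312 higher. TPM divides by the sum of all FPKM, of which the most abundant gene took 28.99% in replicate 1 of control hemin, 21.05% in replicate 2 of labelled KO hemin and 16.8% in replicate 1 of control vehicle. In the other 9 libraries it took at most 5.17%.

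**Figure D1:**
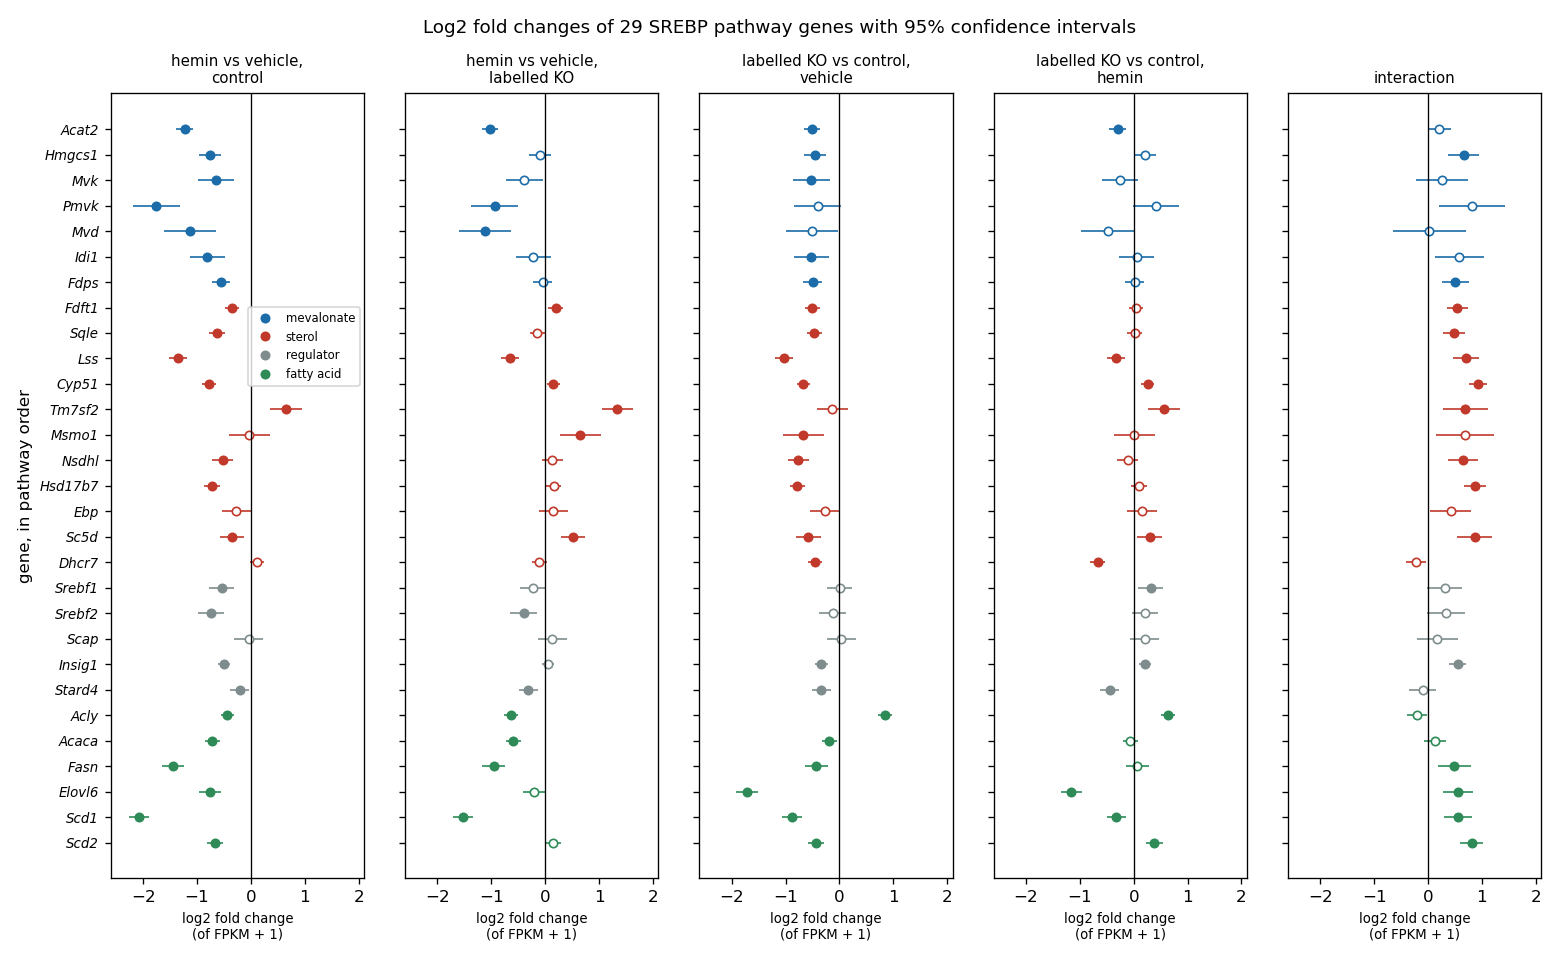
Log2 fold changes of FPKM + 1 (x axis) of the 29 genes in pathway order (y axis) in 5 comparisons, with 95% confidence intervals, coloured by role, where filled points have an adjusted p under 0.05. With hemin, 24 of 29 genes fell at adjusted p alone in control colonoids, where 26.7% of all tested genes did. Under the label KO 10 fell, where 30.4% of all tested genes did. That count depends on the fit and was 15 with a fit of the compared groups alone. The small rises of *Fdft1* and *Cyp51* under the label KO turn negative in TPM.

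The mevalonate enzymes turn acetyl-CoA into farnesyl diphosphate. *Acat2*, the cytosolic thiolase that joins acetyl-CoA units, was at 73.1, 74.2 and 76.6 FPKM under vehicle and 28.5, 32.2 and 33.04 FPKM under hemin in the control libraries, and 49.1, 55.8 and 51.7 FPKM under vehicle and 25.4, 25.8 and 24.3 FPKM under hemin in the libraries labelled KO. The hemin libraries lay below the vehicle libraries of either label without overlap. *Acat2* fell by about the same on the log2 scale in control (-1.23 ± 0.07, adjusted p = 2.0e-07) and labelled KO colonoids (-1.02 ± 0.07, adjusted p = 3.8e-07), with an interaction of 0.21 ± 0.10, adjusted p = 0.15. *Hmgcs1* (ENSMUSG00000093930, chr13:119690379-119708260, plus strand, build mm10), the synthase that makes hydroxymethylglutaryl-CoA, was at 155, 148 and 144 FPKM under vehicle and 81.8, 79.6 and 104 FPKM under hemin in the control libraries, and 117, 104 and 105 FPKM under vehicle and 102, 104 and 97.7 FPKM under hemin in the libraries labelled KO. Control vehicle libraries were highest, the other 9 were spread between 79.6 and 117 FPKM, and replicate 3 was the highest of control hemin. Hemin lowered it in control colonoids (-0.76 ± 0.09, adjusted p = 6.4e-05), the difference in those labelled KO was -0.10 ± 0.09, adjusted p = 0.40, and the interaction was 0.66 ± 0.13, adjusted p = 0.0044. The difference in those labelled KO depended on the processing, and was -0.44, adjusted p = 0.080 in TPM and -0.18, adjusted p = 0.0052 with GC trends removed, where it passed as lower (adjusted p of 0.0052 to 0.75 over all alternatives). In TPM the interaction was 0.52, adjusted p = 0.32.

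*Pmvk*, the phosphomevalonate kinase, was at 31.8, 37.6 and 39.5 FPKM under vehicle and 11.5, 12.4 and 6.95 FPKM under hemin in the control libraries, and 26.03, 27.7 and 27.4 FPKM under vehicle and 14.9, 10.5 and 16.1 FPKM under hemin in the libraries labelled KO. Replicate 3 of control hemin was the lowest of all 12 libraries, and hemin libraries lay below vehicle libraries of either label. It fell with hemin in control (-1.76 ± 0.20, adjusted p = 2.8e-05) and labelled KO colonoids (-0.94 ± 0.20, adjusted p = 0.0016), and the interaction was 0.82 ± 0.28, adjusted p = 0.054, passing without replicate 2 or 3 of control hemin or replicate 2 of labelled KO hemin (adjusted p of 0.0036 to 0.33 over all alternatives). *Mvd*, the decarboxylase that makes isopentenyl diphosphate, was at 86.9, 103 and 109.7 FPKM under vehicle and 53.6, 58.8 and 28.1 FPKM under hemin in the control libraries, and 69.4, 70.1 and 68.4 FPKM under vehicle and 32.8, 28.3 and 33.9 FPKM under hemin in the libraries labelled KO. Again replicate 3 was the lowest of control hemin, near the labelled KO hemin libraries. *Mvd* fell in control (-1.14 ± 0.22, adjusted p = 0.0013; -0.81 without replicate 3 of control hemin) and labelled KO colonoids (-1.11 ± 0.22, adjusted p = 0.0012). The interaction was 0.03, and -0.30 without that replicate. Its difference between labels under hemin was -0.49, adjusted p = 0.11, and -0.81 with adjusted p = 1.2e-04 without replicate 3 of control hemin (1.2e-04 to 0.32 over all alternatives). An annotated gene on the opposite strand spans all of *Mvd*, and strand use in counting was not stated. *Mvk*, the mevalonate kinase, *Idi1*, the isopentenyl diphosphate isomerase, and *Fdps* fell with hemin in control colonoids, with log2 fold changes of -0.65, -0.81 and -0.56. In colonoids labelled KO their log2 differences were -0.38, -0.22 and -0.05, with adjusted p of 0.050, 0.21 and 0.64. Both *Mvk* and *Idi1* passed there without replicate 3 of control hemin, and *Mvk* also without replicate 2. The adjusted p was 0.0090 to 0.17 over all alternatives for *Mvk* and 0.0023 to 0.39 over all alternatives for *Idi1*. *Fdps* shares its position with another annotated gene on the same strand, so its values are uncertain.

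The sterol enzymes turn farnesyl diphosphate into squalene, lanosterol and cholesterol. *Lss* (ENSMUSG00000033105, chr10:76531588-76557138, plus strand), the lanosterol synthase that closes the sterol rings, was at 35.97, 36.7 and 37.5 FPKM under vehicle and 14.8, 14.6 and 11.96 FPKM under hemin in the control libraries, and 17.7, 17.1 and 17.8 FPKM under vehicle and 10.6, 11.4 and 10.4 FPKM under hemin in the libraries labelled KO. The groups did not overlap, with control vehicle highest and labelled KO hemin lowest. *Lss* fell with hemin in control (-1.36 ± 0.08, adjusted p = 2.0e-07) and labelled KO colonoids (-0.65 ± 0.08, adjusted p = 2.4e-05), was lower in labelled KO colonoids under vehicle (-1.03 ± 0.08, adjusted p = 1.4e-06), and had an interaction of 0.70 ± 0.11, adjusted p = 8.1e-04. *Cyp51* (ENSMUSG00000001467, chr5:4081145-4104746, minus strand), the lanosterol demethylase, was at 122, 113 and 113 FPKM under vehicle and 66.2, 64.2 and 70.98 FPKM under hemin in the control libraries, and 72.9, 72.7 and 72.01 FPKM under vehicle and 80.2, 82.7 and 78.6 FPKM under hemin in the libraries labelled KO. Control vehicle stood above all other libraries, and labelled KO hemin stood above labelled KO vehicle. *Cyp51* fell in control colonoids (-0.78 ± 0.06, adjusted p = 1.1e-06). Its small rise in those labelled KO (0.15 ± 0.06, adjusted p = 0.039) lost its call without any 1 of 8 libraries, with adjusted p of 0.0066 to 0.38 over all alternatives, and was -0.19 in TPM. The interaction was 0.93 ± 0.08, adjusted p = 1.8e-05.

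*Sc5d*, a desaturase late in the pathway, was at 35.9, 33.9 and 31.1 FPKM under vehicle and 23.98, 23.2 and 31.9 FPKM under hemin in the control libraries, and 22.05, 22.7 and 21.9 FPKM under vehicle and 32.9, 31.5 and 32.3 FPKM under hemin in the libraries labelled KO. Labelled KO vehicle held the lowest libraries, and replicate 3 of control hemin lay among those of control vehicle and labelled KO hemin. *Sc5d* rose in colonoids labelled KO (0.52 ± 0.10, adjusted p = 0.0013; 0.19 in TPM, where it no longer passed, and adjusted p of 9.0e-06 to 0.46 over all alternatives) and fell in control colonoids (-0.35 ± 0.10, adjusted p = 0.015), the latter with an adjusted p of 0.058 without replicate 1 and 0.053 without replicate 2 of control hemin, and 0.056 without replicate 1 of control vehicle (4.7e-05 to 0.088 over all alternatives). Its interaction was 0.87 ± 0.15, adjusted p = 0.0015. *Msmo1*, the methylsterol monooxygenase, was at 78.8, 63.9996 and 62.9 FPKM under vehicle and 60.8, 53.1 and 92.9 FPKM under hemin in the control libraries, and 44.1, 42.3 and 41.3 FPKM under vehicle and 65.9, 74.2 and 63.2 FPKM under hemin in the libraries labelled KO. Replicate 3 of control hemin was the highest of all 12 libraries, and control hemin overlapped control vehicle. *Msmo1* rose in colonoids labelled KO (0.65 ± 0.17, adjusted p = 0.0067), although in TPM it was 0.32 and no longer passed, with an interaction of 0.68 ± 0.24, adjusted p = 0.066 and adjusted p = 7.4e-04 without replicate 3 of control hemin (7.4e-04 to 0.37 over all alternatives). *Tm7sf2*, a sterol reductase, was at 9.86, 10.4 and 11.9 FPKM under vehicle and 18.1, 21.1 and 13.6 FPKM under hemin in the control libraries, and 9.32, 9.68 and 10.1 FPKM under vehicle and 27.3, 23.6 and 27.6 FPKM under hemin in the libraries labelled KO. Hemin libraries lay above vehicle libraries of either label. It was the 1 member to rise in control (0.65 ± 0.13, adjusted p = 0.0021), a call lost in TPM (0.49, adjusted p = 0.11), and it rose in labelled KO colonoids as well (1.34 ± 0.13, adjusted p = 7.3e-06). Its interaction (0.70 ± 0.19, adjusted p = 0.021) lost its call without any 1 of 4 libraries, replicate 3 of control vehicle, replicate 1 of labelled KO vehicle and replicates 1 and 3 of labelled KO hemin, with adjusted p of 0.0048 to 0.33 over all alternatives. *Tm7sf2* overlaps *Vps51* on the same strand over 9356 bases, so its values are uncertain.

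*Hsd17b7*, the ketosteroid reductase of the same demethylation steps, was at 27.4, 25.3 and 24.6 FPKM under vehicle and 14.3, 14.8 and 16.8 FPKM under hemin in the control libraries, and 14.6, 14.5 and 14.7 FPKM under vehicle and 16.7, 15.9 and 16.4 FPKM under hemin in the libraries labelled KO. Control vehicle stood above the other 3 groups. It fell in control colonoids (-0.72 ± 0.07, adjusted p = 7.1e-06), and its interaction was 0.88 ± 0.09, adjusted p = 7.5e-05. *Dhcr7*, the dehydrocholesterol reductase, was at 30.4, 30.5 and 30.1 FPKM under vehicle and 32.04, 35.5 and 31.4 FPKM under hemin in the control libraries, and 21.8, 22.04 and 22.01 FPKM under vehicle and 19.5, 21.7 and 19.7 FPKM under hemin in the libraries labelled KO. All 6 labelled KO libraries lay below all 6 control libraries. The hemin difference was 0.12, adjusted p = 0.14 in control colonoids, and -0.11, adjusted p = 0.15 in those labelled KO. In control colonoids it passed as higher without replicate 3 of control hemin and with GC trends removed, but was -0.07, adjusted p = 0.79 in TPM, and in those labelled KO it passed as lower in TPM (-0.45, adjusted p = 0.046). The label difference was -0.45 ± 0.06, adjusted p = 1.6e-04 under vehicle, which no longer passed in TPM (-0.31, adjusted p = 0.23), and -0.67 ± 0.06, adjusted p = 8.0e-06 under hemin. *Fdft1*, the squalene synthase, *Sqle*, the squalene epoxidase, and *Nsdhl*, a sterol dehydrogenase, fell in control colonoids, with log2 fold changes of -0.35, -0.63 and -0.52. Their interactions were 0.55, 0.49 and 0.65, with adjusted p of 0.0012, 0.0030 and 0.0035. The rise of *Fdft1* in colonoids labelled KO (0.20 ± 0.06, adjusted p = 0.019) lost its call without replicate 2 or 3 of labelled KO vehicle or replicate 1 of labelled KO hemin, with adjusted p of 0.0010 to 0.55 over all alternatives, and was -0.14 in TPM. *Ebp*, a sterol isomerase, passed in none of the 5 comparisons, with log2 values from -0.27 to 0.42, but passed in 3 of them without replicate 3 and in 2 without replicate 2 of control hemin, in 2 with GC trends removed, and in 1 with a fit of the compared groups alone.

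Among the regulators, *Srebf2*, which encodes the SREBP tied most to sterol genes, was at 79.3, 89.4 and 90.4 FPKM under vehicle and 53.98, 60.2 and 41.5 FPKM under hemin in the control libraries, and 77.96, 79.4 and 79.7 FPKM under vehicle and 60.7, 58.9 and 59.3 FPKM under hemin in the libraries labelled KO. Hemin libraries lay below vehicle libraries of either label, and replicate 3 was the lowest of control hemin. *Srebf2* fell in control (-0.74 ± 0.11, adjusted p = 2.6e-04) and labelled KO colonoids (-0.40 ± 0.11, adjusted p = 0.0093). *Srebf1*, which encodes the SREBPs tied most to fatty acid genes, was at 38.3, 40.9 and 41.03 FPKM under vehicle and 29.5, 30.8 and 22.03 FPKM under hemin in the control libraries, and 39.9, 39.9 and 40.6 FPKM under vehicle and 33.9, 32.4 and 36.03 FPKM under hemin in the libraries labelled KO. The vehicle libraries of both labels overlapped. It fell in control colonoids (-0.54 ± 0.10, adjusted p = 0.0013) and its difference in those labelled KO was -0.23 ± 0.10, adjusted p = 0.079, passing as lower without replicate 3 of control hemin, with a fit of the compared groups alone, in TPM (-0.57, adjusted p = 0.023) and with GC trends removed (-0.23, adjusted p = 6.1e-04; adjusted p of 6.1e-04 to 0.20 over all alternatives). *Insig1*, a retention protein and itself a well-known SREBP target, was at 128, 127 and 131 FPKM under vehicle and 90.04, 88.3 and 95.4 FPKM under hemin in the control libraries, and 106, 101 and 100.3 FPKM under vehicle and 109, 104 and 106 FPKM under hemin in the libraries labelled KO. Control vehicle was highest, control hemin lowest, and both labelled KO groups lay between them and overlapped each other. Its fall in control colonoids was -0.50 ± 0.05, adjusted p = 1.7e-05, the difference in those labelled KO was 0.05 ± 0.05, adjusted p = 0.39, and the interaction was 0.55 ± 0.07, adjusted p = 3.1e-04. In TPM the difference in those labelled KO turned to -0.29, adjusted p = 0.21, and the interaction was 0.41, adjusted p = 0.42. *Scap*, the escort of SREBPs, passed in none of the 5 comparisons, with log2 values from -0.04 to 0.21, but passed for hemin in labelled KO colonoids with GC trends removed (0.034 to 0.63 over all alternatives). *Stard4*, a sterol carrier, fell in labelled KO colonoids (-0.31 ± 0.08, adjusted p = 0.0059) and in control colonoids (-0.21 ± 0.08, adjusted p = 0.048), where the call was lost without any 1 of 11 libraries, the exception being replicate 3 of control hemin, with adjusted p of 2.9e-04 to 0.16 over all alternatives.

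The fatty acid enzymes held the steepest single fall with hemin among the 29 members, that of *Scd1*. *Scd1* (ENSMUSG00000037071, chr19:44394451-44407709, minus strand), a desaturase that makes oleate, was at 37.7, 39.8 and 41.3 FPKM under vehicle and 7.49, 9.23 and 9.19 FPKM under hemin in the control libraries, and 22.05, 20.04 and 21.3 FPKM under vehicle and 6.22, 7.12 and 6.72 FPKM under hemin in the libraries labelled KO. Hemin libraries of either label were far below vehicle libraries, and labelled KO vehicle lay between. *Scd1* fell in control (-2.08 ± 0.08, adjusted p = 1.8e-08) and labelled KO colonoids (-1.53 ± 0.08, adjusted p = 7.6e-08), and the interaction was 0.55 ± 0.12, adjusted p = 0.0057. Its neighbour *Scd2* was at 563, 577 and 569.8 FPKM under vehicle and 374, 379.6 and 327 FPKM under hemin in the control libraries, and 419, 431 and 419.8 FPKM under vehicle and 447, 493 and 471 FPKM under hemin in the libraries labelled KO. Control vehicle was highest and control hemin lowest, without overlap. *Scd2* fell in control colonoids (-0.66 ± 0.07, adjusted p = 1.7e-05), its difference in those labelled KO was 0.15 ± 0.07, adjusted p = 0.079, and the interaction was 0.81 ± 0.10, adjusted p = 1.6e-04. The difference in those labelled KO passed without replicate 3 of control hemin and with a fit of the compared groups alone, but turned negative in TPM (-0.19, adjusted p = 0.39; adjusted p of 0.013 to 0.39 over all alternatives). *Fasn*, the fatty acid synthase, was at 68.7, 81.2 and 82.97 FPKM under vehicle and 29.4, 30.6 and 23.9 FPKM under hemin in the control libraries, and 56.2, 58.1 and 57.6 FPKM under vehicle and 27.99, 29.9 and 29.5 FPKM under hemin in the libraries labelled KO. Labels overlapped under hemin but not under vehicle. *Fasn* fell in control (-1.44 ± 0.10, adjusted p = 6.7e-07) and labelled KO colonoids (-0.95 ± 0.10, adjusted p = 8.0e-06). Its interaction (0.49 ± 0.14, adjusted p = 0.023) lost its call without any 1 of 6 libraries, with adjusted p of 0.0024 to 0.54 over all alternatives.

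*Acly* (ENSMUSG00000020917, chr11:100476353-100528000, minus strand), the citrate lyase that supplies cytosolic acetyl-CoA, was at 67.004, 70.8 and 71.6 FPKM under vehicle and 49.2, 54.8 and 50.3 FPKM under hemin in the control libraries, and 123, 127 and 128 FPKM under vehicle and 78.4, 83.6 and 80.3 FPKM under hemin in the libraries labelled KO. All 6 labelled KO libraries lay above all 6 control libraries, and hemin libraries below vehicle libraries of their label. The label difference was 0.85 ± 0.06, adjusted p = 7.3e-07 under vehicle and 0.64 ± 0.06, adjusted p = 7.5e-06 under hemin, and *Acly* fell with hemin in control (-0.43 ± 0.06, adjusted p = 1.0e-04) and labelled KO colonoids (-0.64 ± 0.06, adjusted p = 3.3e-06). *Elovl6*, an elongase of long-chain fatty acids, was at 27.7, 26.5 and 26.1 FPKM under vehicle and 14.3, 13.99 and 18.2 FPKM under hemin in the control libraries, and 7.83, 7.28 and 7.35 FPKM under vehicle and 6.04, 6.83 and 6.199 FPKM under hemin in the libraries labelled KO. All 6 labelled KO libraries lay below all 6 control libraries. The label difference was -1.71 ± 0.09, adjusted p = 1.0e-07 under vehicle and -1.16 ± 0.09, adjusted p = 2.8e-06 under hemin. It fell with hemin in control colonoids (-0.76 ± 0.09, adjusted p = 4.8e-05), and its difference in those labelled KO was -0.21 ± 0.09, adjusted p = 0.071, passing as lower without replicate 3 of control hemin, with a fit of the compared groups alone, in TPM (-0.55, adjusted p = 0.027) and with GC trends removed (-0.26, adjusted p = 4.1e-04; adjusted p of 4.1e-04 to 0.19 over all alternatives). *Acaca* fell with hemin in control (-0.72, adjusted p = 6.1e-06) and labelled KO colonoids (-0.59, adjusted p = 1.6e-05). *Acaca*, *Srebf1*, *Fdft1* and *Cyp51* overlap a protein-coding gene on the opposite strand. The difference of *Acaca* between labels under vehicle (-0.19, adjusted p = 0.044) lost its call without any 1 of 8 libraries, with adjusted p of 0.0080 to 0.83 over all alternatives.

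**Figure D2:**
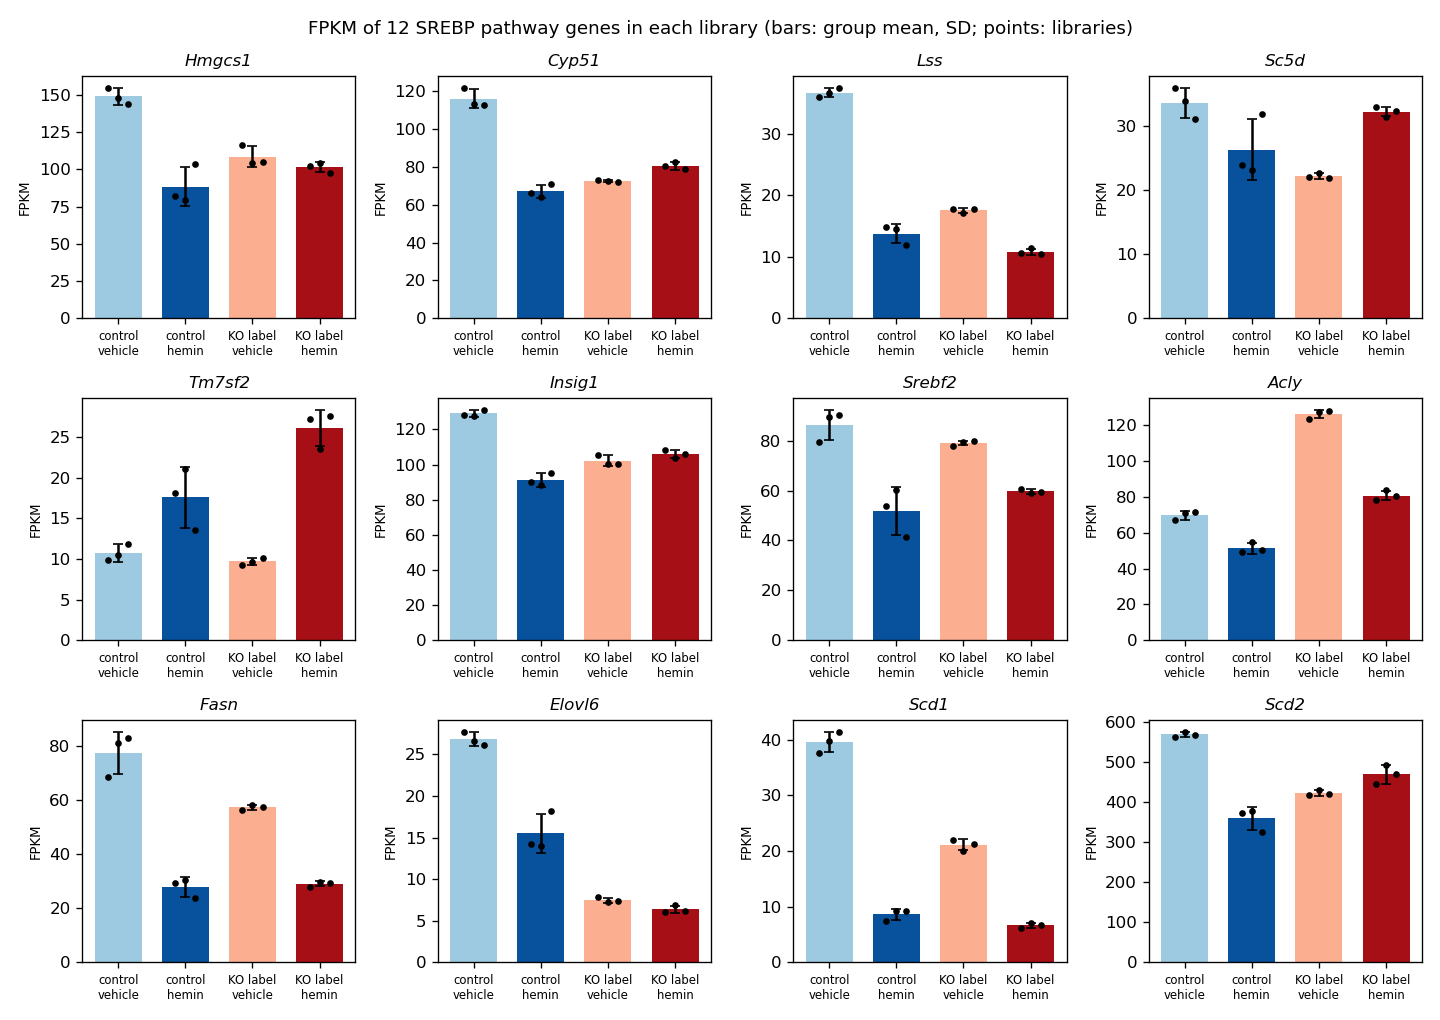
FPKM (y axis) of 12 of the 29 genes in the 4 groups (x axis), with bars for group means, error bars for SD and points for the 3 libraries of a group. *Fasn* and *Scd1* are low under hemin in both labels, *Elovl6* is low and *Acly* high in both labelled KO groups, and labelled KO vehicle libraries of *Hmgcs1*, *Cyp51* and *Insig1* lie below those of control vehicle.

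Other genes of sterol and fatty acid metabolism were counted in the same way, and several counts lie near the share over all tested genes. Of 37 such genes in 3 lists, 32 were tested. With hemin in control colonoids 8 rose and 11 fell at adjusted p alone (all tested genes 23.2% and 26.7%), and in those labelled KO 13 rose and 7 fell (29.9% and 30.4%). Between labels, 10 were higher and 11 lower under vehicle (17.4% and 16.8%), and 9 and 6 under hemin (19.7% and 14.7%). The interaction passed for 9 with a positive and 3 with a negative term (13.3% and 10.5%). Their medians were -0.00, 0.13, -0.12, 0.07 and 0.08 in the same order of comparisons. Of the 9 genes of isoprenoid branches, *Pdss1*, which makes the ubiquinone side chain, fell in both (-1.001 and -1.15, adjusted p = 2.1e-04 and 4.9e-05). Of 11 genes of sterol export, storage and trafficking, 6 were tested, and *Soat1*, which esterifies cholesterol for storage, was at 0.5697, 0.5199 and 0.632 FPKM under vehicle and 4.1005, 4.44 and 5.52 FPKM under hemin in the control libraries, and 5.89, 6.28 and 6.05 FPKM under vehicle and 15.2, 16.1 and 14.97 FPKM under hemin in the libraries labelled KO. It rose with hemin in control (1.85 ± 0.09, adjusted p = 5.5e-08) and labelled KO colonoids (1.21 ± 0.09, adjusted p = 5.2e-07) and was higher in labelled KO colonoids under vehicle (2.17 ± 0.09, adjusted p = 1.1e-08). Over all alternatives the values of *Soat1* were 1.74 to 3.03, 0.97 to 1.34 and 2.14 to 3.41. *Mylip*, a ubiquitin ligase acting on lipoprotein receptors, rose in control colonoids (1.001, adjusted p = 1.4e-05).

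All 17 genes of other fatty acid supply and synthesis were tested. *Me1*, the malic enzyme that supplies NADPH, was at 14.7, 14.9 and 14.7 FPKM under vehicle and 29.5, 29.7 and 41.3 FPKM under hemin in the control libraries, and 0.111, 0.0902 and 0.139 FPKM under vehicle and 9.06, 10.4 and 9.35 FPKM under hemin in the libraries labelled KO. Labelled KO vehicle libraries were close to 0 and all other groups far higher. *Me1* rose with hemin in control (1.11 ± 0.11, adjusted p = 1.3e-05) and labelled KO colonoids (3.25 ± 0.11, adjusted p = 2.5e-09) and was lower in labelled KO colonoids under vehicle (-3.83 ± 0.11, adjusted p = 8.3e-10). Over all alternatives these were 0.95 to 1.19, 3.20 to 6.33 and -6.95 to -3.81. The desaturases *Fads1* and *Fads2* fell with hemin in control (-2.16 and -1.89, adjusted p = 2.0e-07 and 1.2e-07) and labelled KO colonoids (-1.88 and -1.98, adjusted p = 2.6e-07 and 4.1e-08), where *Fads1* ranged over -3.25 to -1.81. *Acacb*, the mitochondrial acetyl-CoA carboxylase, was at 3.53, 3.59 and 3.73 FPKM under vehicle and 1.28, 1.52 and 1.40 FPKM under hemin in the control libraries. In the libraries labelled KO it was at 0.279, 0.354 and 0.321 FPKM under vehicle and 0.296, 0.115 and 0.347 FPKM under hemin. It met the filter through control libraries alone, so no test of it is given, although the counts above include it. *Acsl3*, an acyl-CoA synthetase, was lower in labelled KO colonoids under vehicle (-1.16, adjusted p = 3.2e-05). *Aacs*, the cytosolic acetoacetyl-CoA synthetase, fell with hemin in control (-1.16, adjusted p = 1.2e-05) and labelled KO colonoids (-0.88, adjusted p = 5.6e-05).

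Markers of colonic epithelium were abundant in every library. The 8 epithelial markers, led by *Krt8*, summed to 8221, 9006 and 9199 in control vehicle libraries, 8970.0, 10048 and 7917 in control hemin libraries, 5875, 5873 and 5909 in labelled KO vehicle libraries, and 8650.2, 7434 and 8419 in labelled KO hemin libraries FPKM, and 4 of 8 were lower in labelled KO colonoids under vehicle (all tested genes 16.8%). With hemin, 3 of 8 rose and 0 fell in control (all tested genes 23.2% and 26.7%), and 6 rose and 2 fell in labelled KO colonoids (29.9% and 30.4%). The interaction was positive for 4 of 8 and negative for 0 at adjusted p alone (13.3% and 10.5%), the sign that passing members had. The 4 absorptive colonocyte markers, led by *Car1*, summed to 2407, 2448 and 2227 in control vehicle libraries, 4776, 4296 and 6689.7 in control hemin libraries, 1900.1, 1898 and 1854 in labelled KO vehicle libraries, and 4198, 3358 and 3757 in labelled KO hemin libraries FPKM, so the sums were higher under hemin in either label. Of these 4, 3 rose and 1 fell with hemin in control (all tested genes 23.2% and 26.7%), and 2 rose and 1 fell in labelled KO colonoids (29.9% and 30.4%). The interaction was positive for 2 and negative for 1 (13.3% and 10.5%). Between labels the markers were mixed, with 2 higher and 2 lower in labelled KO under vehicle (17.4% and 16.8%). Under hemin 1 was higher and 2 were lower (19.7% and 14.7%). None of the 5 fibroblast, 5 immune or 3 endothelial markers reached the filter, and their summed levels were at most 0.0791, 0.271 and 0.192 FPKM, led by *Pdgfra*, *Cd79a* and *Pecam1*. *Col1a2* and *Dcn*, *Cd3e* and *Adgre1*, and *Kdr* had at most 3 fragments in every library. The 3 adipocyte and hepatocyte markers summed to at most 1.72 FPKM, led by *Alb*, and *Adipoq* and *Plin1* had at most 3 fragments. *Alb* was at 1.12, 1.704 and 1.14 FPKM in labelled KO vehicle, 0.415, 0.544 and 0.208 FPKM in labelled KO hemin and at most 0.104 FPKM in control libraries. It met the filter through labelled KO vehicle alone, so no test of it is given. Other epithelial classes moved with the groups. The 4 enteroendocrine markers were led by *Pyy* in labelled KO libraries and by *Chgb* in control libraries. They summed to 29.998, 33.7 and 35.3 FPKM in control vehicle and 30.3, 26.6 and 18.5 FPKM in control hemin libraries. In labelled KO libraries the sums were 526, 549 and 524 FPKM under vehicle and 475, 382 and 446 FPKM under hemin. *Neurod1* reached 1 FPKM in labelled KO vehicle and in 1 other library, so no count of passing markers is given for this list. The 5 goblet markers, led by *Tff3*, summed to 1156, 1401 and 1342 in control vehicle libraries, 1058, 1093 and 741 in control hemin libraries, 1349, 1298 and 1323 in labelled KO vehicle libraries, and 289, 235 and 271 in labelled KO hemin libraries FPKM. They fell with hemin for 4 of 5 in control and 5 of 5 in labelled KO colonoids (all tested genes 26.7% and 30.4%), with a negative interaction for 5 of 5 (10.5%). The 5 crypt stem and cycling markers, led by *Mki67*, summed to 97.99, 88.2 and 91.2 FPKM in control vehicle and 30.8, 33.1 and 38.3 FPKM in control hemin libraries. In labelled KO libraries the sums were 129, 124 and 126 FPKM under vehicle and 46.1, 55.9 and 50.5 FPKM under hemin. The sums were thus lower under hemin in either label. *Lgr5* reached 1 FPKM in vehicle libraries alone, so no count of passing markers is given for this list either. What these changes contribute to the levels of the sterol and fatty acid genes was not tested.

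Promoters were taken from RefSeq (build GRCm38.p6), 250 bases before to 50 after a gene's start, and 23 of the 29 members had an entry. Entries for *Fdps*, *Fdft1*, *Sqle*, *Stard4*, *Scd1* and *Scd2* were missing. The core of the sterol regulatory element, TCACNCCAC on either strand, was found for 1 of 23 members (4.35%), *Hmgcs1*, and for 1.44% of 27025 genes. Of all 32851 promoters, 1.24% held it. With another letter left free, TCACNNCAC, which includes every match of the first, was found for 4 of 23 members (17.4%), *Hmgcs1*, *Dhcr7*, *Hsd17b7* and *Msmo1*, and for 4.37% of genes and 3.77% of promoters. CCAAT, the box bound by NF-Y, was found for 19 of 23 members (82.6%), for 41.1% of genes and in 37.4% of promoters. GGGCGG, the GC box, was found for 19 of 23 members (82.6%), for 38.2% of genes and in 35.7% of promoters. A match is a description and not a site, and the absence of one says only that these letters are not in this window. The stretches around the matches of *Hmgcs1* (chr13:119690174-119690262, plus strand) and *Hsd17b7* (chr1:169969274-169969362, minus strand) are given since both genes fell with hemin in control colonoids and passed the interaction test. *Dhcr7* and *Msmo1*, which also held TCACNNCAC, passed neither test in the main fit, and their stretches are not shown. The stretches shown read in the direction of the gene, upstream of its start, with the match of TCACNNCAC in capitals. That of *Hmgcs1* also matches the core TCACNCCAC, and that of *Hsd17b7* does not.
*Hmgcs1*: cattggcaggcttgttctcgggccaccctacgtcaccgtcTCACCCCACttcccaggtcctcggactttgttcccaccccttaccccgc
*Hsd17b7*: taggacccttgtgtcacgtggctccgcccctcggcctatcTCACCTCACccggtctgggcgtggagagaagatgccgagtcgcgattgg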

How the data were processed

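RNA was measured in 12 mouse colonoid libraries. The authors deposited FPKM per gene, and the submitters' processing notes name fastp, HISAT2 2.0.5, featureCounts 1.5.0-p3 and the mm10 build. Whether libraries and counting used strand is not given in the sources used here. FPKM times gene length gave whole fragments for 100% of values, within 0.01 of a fragment. Of the 54532 genes, 12740 with at least 1 FPKM in at least 3 of 12 libraries were tested on log2(FPKM + 1) with limma 3.58.1 (R 4.3.3, trend, 1 mean per group, residual df of 8), with p-values adjusted by Benjamini-Hochberg over all of them. This scale understates changes of low genes. Called means an adjusted p under 0.05 and a log2 fold change beyond 1 in size; counts at adjusted p alone are named so. Tables and figures used Python 3.11.15, pandas 2.3.3 and matplotlib 3.10.9. GC content came from the longest GENCODE transcript of a gene. The genes named are *Hmox1*, every member, of each other list the genes called in at least 1 of 5 comparisons (at most 8 by size of change), and the most abundant gene of each marker list. The markers at 3 or fewer fragments were named after their values were seen. The members and lists were chosen with earlier results of these data known. Other genes of the pathway, 1 planned list among them, are not reported here. The 5 comparisons draw on the same 4 groups. Scripts were tested on simulated data. Libraries of 1 group differed by more than sampling noise (chi-square per degree of freedom 1.98 to 47.9), so all 12 were counted. Alternatives were another pseudocount, filters, TPM, a replicate block, no intensity trend, fits of the compared groups only, limma-voom on recovered fragments, each library left out, a wider motif and, chosen after seeing the data, GC trends removed in 25 bins and TPM on the genes of the FPKM filter.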

Additional observations from a re-analysis of the deposited data

Results flagged for a closer look

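The hemin change differed between control colonoids and those labelled KO for 15 of 29 members, by the interaction term of limma at an adjusted p under 0.05. Of all tested genes, 13.3% passed with a positive and 10.5% with a negative term. *Hmox1* was lower in labelled KO than in control libraries under vehicle, but higher under hemin, which goes against the label. The direction is therefore one between labels. Values of the whole gene cannot tell reads of exons that a deletion may leave in place from those of an intact transcript. Every term was positive, on the log2 scale of FPKM + 1. Among sterol enzymes it was 0.93 for *Cyp51*, 0.55 for *Fdft1*, 0.49 for *Sqle*, 0.65 for *Nsdhl*, 0.87 for *Sc5d*, 0.70 for *Lss*, 0.88 for *Hsd17b7* and 0.70 for *Tm7sf2*. Among mevalonate enzymes it was 0.66 for *Hmgcs1* and 0.51 for *Fdps*, among regulators 0.55 for *Insig1*, and among fatty acid enzymes 0.81 for *Scd2*, 0.49 for *Fasn*, 0.55 for *Scd1* and 0.55 for *Elovl6*. For *Cyp51*, *Sc5d* and *Fdft1* the changes ran in opposite directions, a fall in control and a rise in labelled KO colonoids, although in TPM the latter was negative for *Cyp51* and *Fdft1*, and 0.19 for *Sc5d*, which no longer passed. The rises of *Cyp51* and *Fdft1* and the fall of *Sc5d* also lost their calls without certain single libraries. So did the interactions of *Tm7sf2* and *Fasn*. *Fdps* and *Tm7sf2* overlap another annotated gene on the same strand, so their values are uncertain. For *Lss*, *Fasn* and *Scd1* both groups fell, and the fall was smaller in colonoids labelled KO. *Tm7sf2* rose in both, by more in colonoids labelled KO. None of the 15 passed in TPM, where 349 of 15495 tested genes passed with a positive and 752 with a negative term.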

How the results depend on the processing

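Comparisons are given in the order hemin in control, hemin in labelled KO, labels under vehicle, labels under hemin, and interaction. Dropping the fold threshold gave 1 higher and 24 lower, 5 higher and 10 lower, 1 higher and 21 lower, 7 higher and 6 lower, 15 higher and 0 lower among members, and 8 and 11, 13 and 7, 10 and 11, 9 and 6, 9 and 3 among other pathway genes, beside 23.2% and 26.7%, 29.9% and 30.4%, 17.4% and 16.8%, 19.7% and 14.7%, 13.3% and 10.5% of all tested genes. Rescaling to TPM moved the members' median to -0.85, -0.49, -0.32 and, for the interaction, 0.40. It gave 6 members called lower for hemin in labelled KO, and 1 higher and 1 lower for labels under vehicle. *Fdft1* and *Cyp51* turned to -0.14 and -0.19 for hemin in labelled KO. Other pathway genes in TPM gave 7 called lower for hemin in control, 1 higher for hemin in labelled KO, 3 lower for labels under hemin, and 2 positive and 1 negative for the interaction. For labels under hemin, a pseudocount of 0.1 gave 3 lower, and limma-voom 2 higher and 3 lower. For the interaction, both gave 1 and 1 negative. GC trends removed, chosen after seeing the data, gave a median of -0.19 for hemin in labelled KO. TPM on the same genes, also chosen after seeing the data, gave the same medians of members and the same member calls with the fold threshold as TPM. For other pathway genes it gave 6 lower for hemin in control, 1 higher for hemin in labelled KO, 3 lower for labels under hemin, and 1 positive and 1 negative for the interaction. The cause was not tested.

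Leaving out each library in turn, the members' median ranged over -0.69 to -0.59, -0.17 to -0.13, -0.50 to -0.45, 0.023 to 0.081 and 0.50 to 0.57. Interaction calls ranged over 0 to 1 among members, the 1 being without replicate 3 of control hemin, and 1 to 3 among other pathway genes. Members called lower for hemin in labelled KO ranged over 2 to 4. At adjusted p alone, higher members ranged over 1 to 2, 3 to 8, 1 to 1, 5 to 10 and 13 to 19. Lower members ranged over 22 to 24, 10 to 15, 18 to 24, 6 to 8 and 0 to 2. The numbers of all tested genes that passed varied between these fits as well.

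Same-numbered libraries of different groups had deviations with a mean r of -0.04 over 18 pairs (-0.33 to 0.18), so the numbers were not read as pairing. With the replicate block, members called were 0 higher and 6 lower, 1 higher and 3 lower, 0 higher and 2 lower, 0 higher and 1 lower, 0 higher and 0 lower, and 5 of 195 single-gene values no longer passed. The wider motif gave 17.4% of members. Of 195 single-gene values, 52 no longer passed and 6 newly passed in TPM, and 23 newly passed without replicate 3 of control hemin. With 3 libraries a group and 1 of them standing apart, differences near the threshold are uncertain.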
